A study of Homo sapiens with 6 samples.

Results

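The 38 genes described here are expressed in the G2 phase and mitosis of dividing cells, and they were taken as a list of symbols by their known role. All 38 were found among the 23619 gene symbols measured, and all 38 reached the minimum level for testing, an FPKM of 1 in at least 3 of 6 libraries, which 11307 genes reached. FPKM counts sequenced fragments relative to transcript length and to the fragments mapped in the library, so levels can be compared between genes per unit of length.

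The cells were HG3, labelled a lymphoblastoid cell line, which is an established line of leukaemic B cells. Per the labels, 3 control pools and 3 fludarabine-resistant pools were measured, 1 library each, and both groups carry the numbers 17, 18 and 28. Fludarabine, a purine analogue drug, blocks DNA synthesis, and the resistant pools came out of a transposon mutagenesis study. The sample titles call the resistant libraries treated, without naming the treatment, and the others control. Resistance and treatment therefore cannot be told apart here. The sources used here do not state whether control pools also carried the transposon, how long each pool was selected, or whether drug was present at harvest. The B cell label matched the data: MS4A1, CD79A, CD79B, PAX5, CD22 and CD5 all had an FPKM of at least 4.67 in every library. Of 7 markers of T and NK cells and 7 of stromal, erythroid and epithelial cells, none reached an FPKM of 1 in all 6 libraries, and the highest single value was 1.30. The 6 myeloid markers summed to 2.38 to 3.36 FPKM in controls and 2.41 to 8.22 in resistant libraries, the highest in resistant 18, through ITGAM at 6.05; CD14 was at most 0.141 and FCGR3A was listed at 0 throughout.

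Resistant 18 stood apart from the other libraries. When limma estimated how far each library should count in its group, it gave resistant 18 a weight of 0.162 and the others 1.03 to 1.93. It also had the fewest genes at an FPKM of 1 or more, 10936 against 11159 to 11331. Depth relative to control 17 was 1.02 to 1.30 in the other libraries, with resistant 18 at 1.10. Each result below is therefore given by pool, as resistant minus control within the pool, and the whole comparison is also given without resistant 18. Within a pool there is 1 library in each group, so a difference has no replicate check there. In such bulk samples, fewer dividing cells and less RNA per dividing cell cannot be told apart.

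As background, cells enter mitosis when cyclin B binds the kinase CDK1 and the phosphatase CDC25C removes the phosphates that hold CDK1 back. The genes needed for mitosis are transcribed late in the cycle by the MuvB complex with B-MYB and FOXM1, and are kept silent in resting cells by the DREAM complex. Both assemblies bind a short promoter element, the cell cycle genes homology region (CHR), usually close to boxes with the sequence CCAAT. For this reason the amount of these RNAs in a culture is commonly read as a sign of how many of its cells are dividing.

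The promoters of these genes are shown because the element that joins them is visible in the letters. RefSeq promoter windows on GRCh38.p14, from 250 bases before to 50 bases after each gene's start, were matched by symbol for 31 of the 38 genes; BUB3, TTK, AURKA, TPX2, BIRC5, UBE2C and FOXM1 had no entry. The search was for TTTGAA or TTCGAA on either strand for the CHR, and for CCAAT on either strand, where it reads ATTGG. A CHR match lay in 22 of the 31 windows (71.0%), against 11.3% of 8143 windows of genes tested and 16.6% of all 27305 windows. From 100 bases before to 50 after the start the shares were 61.3%, 4.42% and 7.43%. CCAAT was found in 24 of 31 windows (77.4%), against 37.7% of genes tested. Among 30 windows of S phase genes listed for comparison, 2 held a CHR match and 19 held CCAAT. A match is a description of the letters, not a bound site. Other spellings of the CHR were not searched, so a window without a match may still hold the element.

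The following are the 100 bases before the start of 6 genes, 5′ to 3′ along the gene's own strand, with every CHR and CCAAT match, on either strand, in capitals. CCNB2, PLK1 and CDC20 stand for the main pattern, HMMR had a large difference, and MKI67 and PTTG1 departed from the other genes in the expression data below.
CCNB2, chr15:59105046-59105145, plus strand: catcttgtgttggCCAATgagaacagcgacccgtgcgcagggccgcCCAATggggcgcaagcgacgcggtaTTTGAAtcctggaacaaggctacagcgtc
PLK1, chr16:23678789-23678888, plus strand: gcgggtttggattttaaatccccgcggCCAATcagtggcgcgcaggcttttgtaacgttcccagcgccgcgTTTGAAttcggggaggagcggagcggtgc
CDC20, chr1:43358881-43358980, plus strand: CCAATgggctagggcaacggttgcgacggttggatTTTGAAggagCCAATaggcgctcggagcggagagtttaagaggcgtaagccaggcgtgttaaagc
HMMR, chr5:163460532-163460631, plus strand: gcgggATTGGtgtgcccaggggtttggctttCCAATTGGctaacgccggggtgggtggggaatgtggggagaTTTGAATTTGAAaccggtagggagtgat
MKI67, chr10:128126424-128126523, minus strand: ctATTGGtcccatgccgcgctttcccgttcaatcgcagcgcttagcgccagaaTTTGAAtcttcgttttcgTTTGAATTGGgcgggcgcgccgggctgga
PTTG1, chr5:160421755-160421854, plus strand: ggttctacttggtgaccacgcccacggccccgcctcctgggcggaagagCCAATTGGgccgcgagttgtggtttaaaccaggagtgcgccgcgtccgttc
In CCNB2 and in PLK1 the first T of TTTGAA lay 29 bases before the start. MKI67 held the element at 47 and at 29 bases before the start, the second overlapping an ATTGG. PTTG1 held CCAAT and ATTGG overlapping at 51 and 48 bases before the start. Its window held neither TTTGAA nor TTCGAA on either strand, and other spellings were not searched. Promoters that match are thus found both among the genes that followed the group and in MKI67.

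In control cells the 38 genes were expressed at steady levels. Mean control FPKM ran from 3.57 ± 0.0899 for CENPE, the kinetochore motor, to 264 ± 7.56 for BUB3, a checkpoint protein that also has work outside mitosis (SD, n = 3 libraries). The next highest were PTTG1 (110 ± 12.5) and UBE2C (82.8 ± 11.5). The coefficient of variation over the 3 controls had a median of 9.38% for the 38 genes and 14.2% for all genes tested, with MAD2L1 lowest at 1.59% and AURKB highest at 28.8%. The median deviation of the 38 genes from their control means, on the log2(FPKM + 1) scale, was 0.02, 0.04 and -0.07 in controls 17, 18 and 28. The controls therefore lay close together for this group.

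The resistant libraries did not. The same median deviation was -0.05 in resistant 17, 0.95 in resistant 18 and -0.51 in resistant 28, while the median of all genes tested stayed between -0.02 and 0.06. In resistant 18, 36 of the 38 genes lay above their control mean, and in resistant 28 only 1 did. Resistant 18 was the highest of the 6 libraries for 35 of the 38 genes, against 35.4% of all genes tested. Resistant 28 was the lowest for 32 of the 38, against 17.4% of all genes tested. For 30 of the 38 genes both held, against 9.37% of all genes tested. In resistant 17, 16 of the 38 lay above their control mean.

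**Figure D1:**
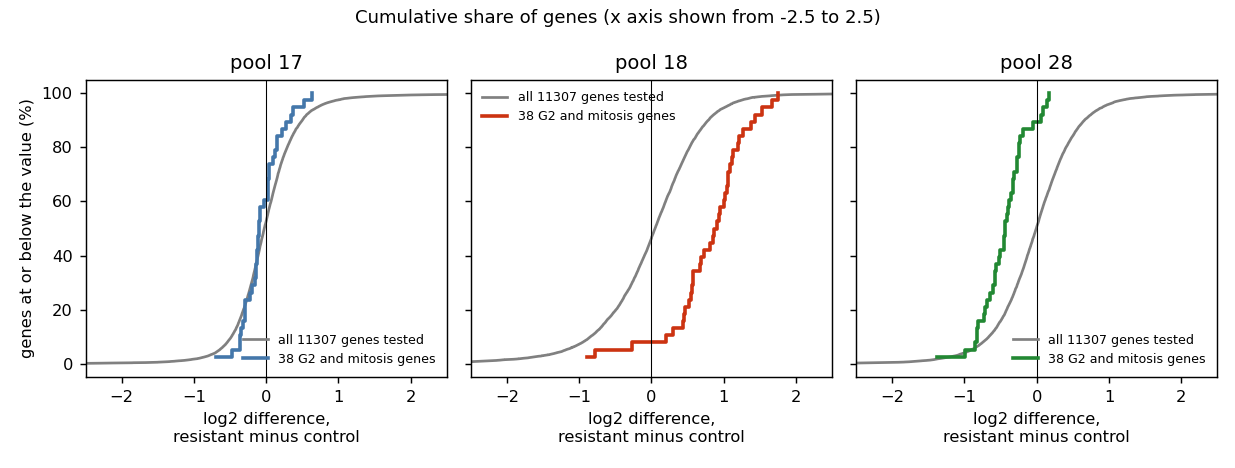
Cumulative share of genes (y axis, %) at or below a log2 difference of FPKM + 1, resistant minus control (x axis), in each pool, for the 38 G2 and mitosis genes (coloured steps) and for all 11307 genes tested (grey). The coloured steps lie near the grey line in pool 17 (median -0.10), to its right in pool 18 (0.89) and to its left in pool 28 (-0.43).

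Compared with its own control, the group had a median log2 difference of -0.10 in pool 17, 0.89 in pool 18 and -0.43 in pool 28, where all genes tested had -0.03, 0.05 and -0.01. In pool 18, 30 of the 38 genes were over 0.5 (21.3% of all genes tested were), 16 were over 1 (5.41%) and 2 were under -0.5 (19.7%). In pool 28, 16 of the 38 were under -0.5 (15.8% of all genes tested) and 0 were over 0.5 (15.7%) or over 1 (4.06%). In pool 17, 2 were over 0.5 (9.94%), 0 were over 1 (2.45%) and 1 was under -0.5 (9.3%). For 26 of the 38 the difference was over 0.5 in pool 18 and under 0 in pool 28, against 8.77% of all genes tested. Counted against the median of all genes in each pool, which is 50% of genes tested by construction, 15, 35 and 4 of the 38 were above it in pools 17, 18 and 28. So the group as a whole was higher than control in pool 18, lower in pool 28 and near control in pool 17.

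Over the 3 pools these opposite differences nearly cancelled, and none of the 38 genes passed the test. The median log2 difference was 0.12 and 23 of the 38 genes were positive (51.6% of all genes tested). With limma and Benjamini-Hochberg adjustment over all 11307 genes, 0 of the 38 passed a threshold of 0.05, while 0.0354% of all genes tested did (0.0177% higher and 0.0177% lower). At an unadjusted p under 0.05, 2 of the 38 were lower (7.14% of all genes tested), MKI67 and PTTG1, and 0 were higher (5.99%); in either direction 13.1% of all genes tested reached it. Without resistant 18 the median was -0.29 with 4 of 38 positive, against 46.9% of all genes tested. Without resistant 28 it was 0.44 with 34 of 38 positive, against 52.9% of all genes tested. In both fits 0 of 38 passed. The smallest limma adjusted p of any of the 38 was 0.182, for MKI67.

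**Figure D2:**
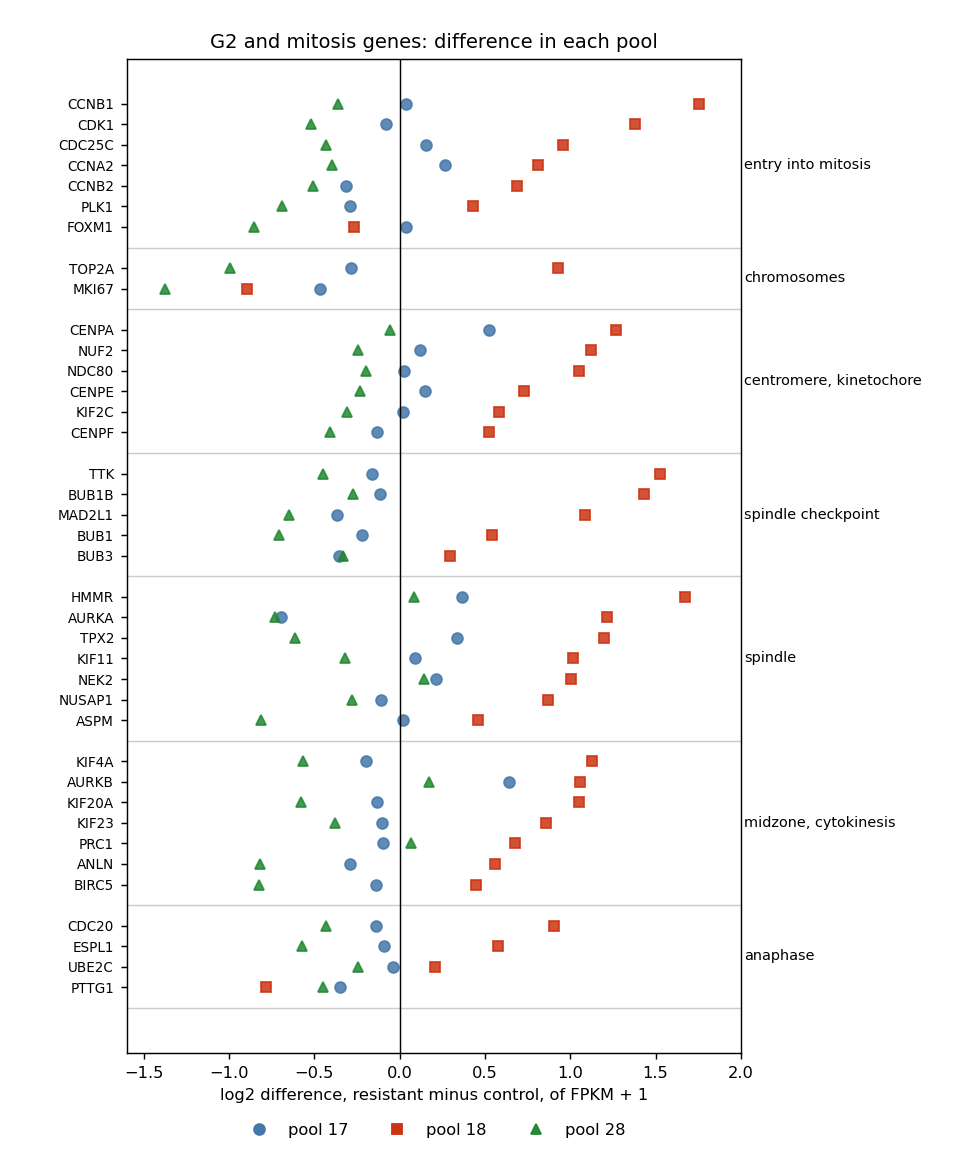
Log2 difference of FPKM + 1, resistant minus control (x axis), of each of the 38 genes (rows, grouped by role) in pools 17 (circles), 18 (squares) and 28 (triangles); each point compares 1 library with 1 library. Squares lie right of 0 for all but MKI67, PTTG1 and FOXM1, from 0.21 (UBE2C) to 1.75 (CCNB1), and triangles lie left of 0 for all but HMMR, NEK2, AURKB and PRC1.

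The genes that start mitosis had the widest range in pool 18. CCNB1, the B-type cyclin that activates CDK1, read 23.7, 24.4 and 20.5 FPKM in controls 17, 18 and 28, against 24.3, 84.6 and 15.7 in resistant libraries. Its resistant 18 value was 3.46-fold that of control 18, a log2 difference of 1.75, the largest of the 38, while resistant 17 sat within 0.04 of its control. CDK1, the kinase itself, read 29.2, 27.8 and 27.8 FPKM in controls, against 27.6, 73.6 and 19.1 in resistant libraries. Its controls differed little, so both the high value of resistant 18 (2.65-fold) and the low one of resistant 28 (1.46-fold lower) lay well outside them. CCNB2, the other B-type cyclin, differed less than CCNB1 in pool 18 (0.69) and more in pool 28 (-0.51). CCNA2, the A-type cyclin of S phase and G2, differed by 0.27, 0.81 and -0.40 in pools 17, 18 and 28, and CDC25C by 0.15, 0.95 and -0.43. PLK1, a kinase of mitotic entry and of the spindle, read 21.0, 23.9 and 20.0 FPKM in controls, against 16.9, 32.6 and 12.0 in resistant libraries.

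FOXM1, the transcription factor that drives many of the other genes, departed from the group in pool 18. It read 5.96, 9.99 and 8.89 FPKM in controls 17, 18 and 28, against 6.15, 8.14 and 4.48 in resistant libraries. Its difference was -0.27 in pool 18, where all other genes of mitotic entry were positive, and -0.85 in pool 28. Over the pools it was -0.36 (SE 0.26, limma adjusted p = 0.579), and the groups overlapped. Its control values were among the most variable of the group, with a coefficient of variation of 25.1%.

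Genes of the chromosomes and the kinetochore split into those that followed the group and MKI67. TOP2A, the topoisomerase that untangles chromosomes, read 48.8, 54.9 and 55.6 FPKM in controls, against 39.8, 106 and 27.4 in resistant libraries, with the lowest difference of any gene but MKI67 in pool 28 (-0.99). At the centromere, the differences of all 6 genes exceeded the all-gene median in pool 18 and were under it in pool 28. With GC and length trends removed, CENPE had 0.03 and CENPF -0.07 in pool 28. CENPA, NDC80, NUF2 and KIF2C then ran from -0.33 to -0.18. CENPA, the histone variant that marks the centromere, read 6.01, 7.65 and 6.71 FPKM in controls, against 9.09, 19.9 and 6.42 in resistant libraries. Resistant 28 thus lay within the controls for CENPA and resistant 17 above them. NDC80 and NUF2, partners in the complex that holds microtubules at the kinetochore, had 1.05 and 1.12 in pool 18 and -0.20 and -0.24 in pool 28. CENPE differed by 0.73 and -0.24, the kinetochore protein CENPF by 0.53 and -0.41, and the microtubule-depolymerizing kinesin KIF2C by 0.58 and -0.31.

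The 5 genes of the spindle checkpoint, which delays anaphase until every kinetochore is attached, had a median of -0.22, 1.09 and -0.45 in pools 17, 18 and 28. TTK, the kinase that starts the checkpoint signal, read 10.1, 9.05 and 8.91 FPKM in controls, against 8.97, 27.9 and 6.26 in resistant libraries, 3.08-fold control in pool 18. BUB1B differed by 1.43 in pool 18 and BUB1 by 0.54, and they had -0.27 and -0.71 in pool 28. MAD2L1, which encodes the checkpoint protein MAD2, read 35.4, 36.2 and 35.2 FPKM in controls, against 27.2, 78.0 and 22.1 in resistant libraries. All 3 of its resistant values lay outside the narrow range of its controls, but on both sides of it. BUB3 had the smallest difference of the checkpoint genes in pool 18 (0.30), and its 6 libraries lay between 203 and 331 FPKM.

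Spindle genes held both the steepest difference after CCNB1 and a pair that separated in pool 17. HMMR, a spindle protein that binds hyaluronan outside the cell, read 11.6, 11.6 and 10.6 FPKM in controls, against 15.3, 39.3 and 11.3 in resistant libraries, with 0.37, 1.67 and 0.08 in pools 17, 18 and 28. It was thus higher in every pool than its own control, although resistant 28 lay within the controls. Over the pools its difference was 0.71 (SE 0.41, limma adjusted p = 0.498). AURKA, the kinase of the spindle poles, and TPX2, the protein that activates it, had similar differences in pool 18 (1.21 and 1.20) and in pool 28 (-0.73 and -0.61). In pool 17 AURKA was lower (21.5 to 12.9 FPKM, -0.70) and TPX2 higher (16.5 to 21.2 FPKM, 0.34). NEK2, a centrosome kinase, read 21.6, 17.8 and 16.5 FPKM in controls, against 25.2, 36.6 and 18.3 in resistant libraries, higher in every pool but with overlapping groups (0.45, SE 0.26, limma adjusted p = 0.496). The motor KIF11 differed by 1.02 in pool 18 and -0.32 in pool 28, NUSAP1 by 0.87 and -0.28, and ASPM by 0.46 and -0.81.

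Genes of the midzone and cytokinesis, which cut the cell in 2 after chromosomes separate, had a median of -0.13, 0.86 and -0.57 in pools 17, 18 and 28. AURKB, the kinase of the chromosomal passenger complex, read 44.5, 61.7 and 34.95 FPKM in controls, against 69.7, 129 and 39.4 in resistant libraries. It was higher than its own control in every pool, although in pool 28 its difference was 0.17 and became -0.04 with GC and length trends removed. In pool 17 (0.64) it stood over 3 scaled median absolute deviations from the median of the group. Its groups overlapped, and the difference over the pools was 0.62 (SE 0.43, limma adjusted p = 0.568). BIRC5, or survivin, which sits in the same complex, read 39.6, 47.9 and 43.8 FPKM in controls, against 35.9, 65.6 and 24.3 in resistant libraries, so that AURKB and BIRC5 differed in opposite directions in pools 17 and 28. PRC1, the bundler of midzone microtubules, was near its control in pool 28 (0.06) and had 0.68 in pool 18 (0.21 over the pools, SE 0.29, limma adjusted p = 0.794). Without resistant 18 its difference was -0.045. The midzone kinesins KIF20A, KIF23 and KIF4A had 1.05, 0.86 and 1.13 in pool 18 and -0.58, -0.38 and -0.57 in pool 28, and the contractile ring protein ANLN 0.56 and -0.82.

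The anaphase genes had the smallest median in pool 18 of the groups with at least 4 genes, 0.39. CDC20, which turns on the anaphase-promoting complex, read 26.4, 30.8 and 24.2 FPKM in controls, against 23.9, 58.4 and 17.6 in resistant libraries. UBE2C, the ubiquitin-conjugating enzyme of that complex, had 92.2, 86.3 and 70.0 against 89.8, 99.8 and 58.8, the smallest positive difference in pool 18 (0.21). ESPL1, or separase, the protease that cuts cohesin, differed by -0.09, 0.58 and -0.57. PTTG1, or securin, the inhibitor that holds separase until anaphase, did the opposite in pool 18.

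**Figure D3:**
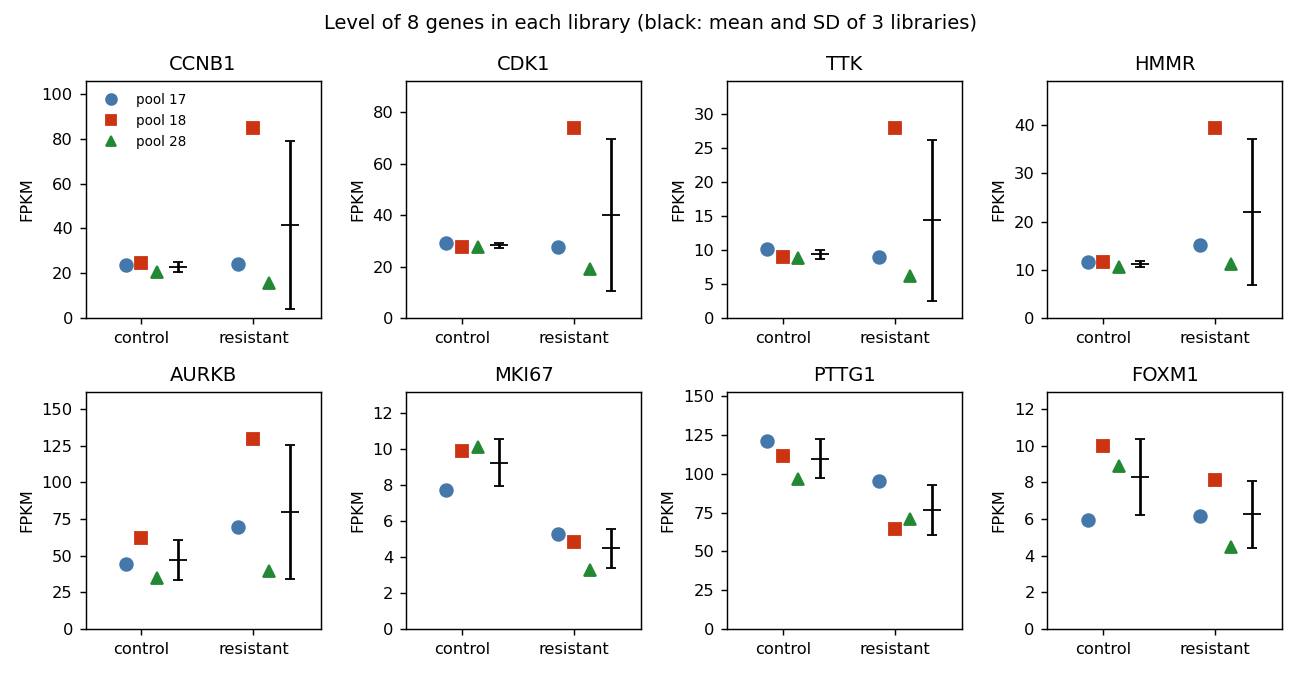
FPKM (y axis, from 0) of 8 genes in each library, by group (x axis) and pool (symbols as labelled); black bars are the mean and SD of 3 libraries. Resistant 18 is the highest library for CCNB1, CDK1, TTK, HMMR and AURKB, while all resistant libraries lie below all controls for MKI67 and PTTG1.

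MKI67 and PTTG1 were the 2 genes farthest below the group in pool 18. MKI67, the Ki-67 protein that coats mitotic chromosomes and is widely used as a marker of dividing cells, read 7.71, 9.85 and 10.1 FPKM in controls 17, 18 and 28, against 5.29, 4.83 and 3.27 in resistant libraries. All 3 resistant values were below all 3 controls, 2 of the 38 genes showing this (11.1% of all genes tested) and 0 the reverse (10.1%). Its mean was 9.22 ± 1.31 FPKM for controls and 4.46 ± 1.06 for the resistant group (SD, n = 3 libraries each). The differences were -0.47, -0.90 and -1.38 in pools 17, 18 and 28, and -0.91 over the pools (SE 0.20, limma adjusted p = 0.182). It stood over 3 scaled median absolute deviations from the group in pools 18 and 28. With library weights, which count resistant 18 least, its limma adjusted p was 0.0444, the only one of the 38 genes under the threshold. That fit passed 301 of all 11307 genes tested, so 1 of 38 is near the share over all genes. In resistant 18, then, MKI67 was below its control by 0.90 while TOP2A was above by 0.93.

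PTTG1 read 121, 111 and 96.6 FPKM in controls 17, 18 and 28, against 95.1, 64.1 and 70.6 in resistant libraries. Resistant 18, the highest library for most of the group, was the lowest for PTTG1. The groups did not overlap, but resistant 17 lay just under control 28. The mean was 110 ± 12.5 against 76.6 ± 16.3 FPKM, and the difference was -0.53 over the pools (SE 0.21, limma adjusted p = 0.349). PTTG1 has near-identical copies, of which PTTG2 had at most 0.420 FPKM and PTTG3P was listed at 0 in all libraries; how reads shared with copies were counted is not stated. KIF4A has a copy, KIF4B, at most 0.0452 FPKM. HMMR has an antisense neighbour, and whether strand was kept is not stated either, so their reads cannot be told apart here. MKI67 and PTTG1 were the only 2 of the 38 genes lower in all 3 pools (18.7% of all genes tested), and HMMR, NEK2 and AURKB the 3 that were higher in all 3 (18.9%). Both shares of the 38 lie below those over all genes. Without resistant 18 the differences of HMMR, NEK2 and AURKB were 0.20, 0.21 and 0.19, less than those over all pools, and those of MKI67 and PTTG1 were -0.97 and -0.41.

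**Figure D4:**
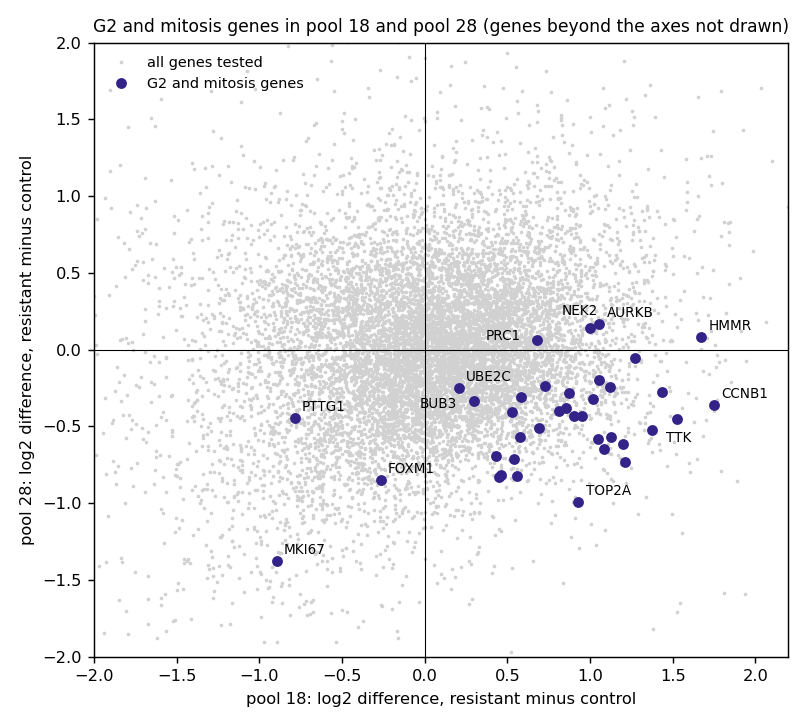
Log2 difference of FPKM + 1, resistant minus control, in pool 18 (x axis) and pool 28 (y axis) for the 38 genes (dark points, some named) and all genes tested (grey; genes beyond the axes are not drawn). Most of the 38 lie in the lower right, while MKI67, PTTG1 and FOXM1 lie in the lower left.

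The order of the genes was partly shared between pools. Across the 38 genes, the differences of pools 17 and 28 had a Pearson r of 0.63 (Spearman rho 0.60), those of pools 17 and 18 0.37 (0.35), and those of pools 18 and 28 0.46 (0.34). Without MKI67 these became 0.60 (0.57), 0.29 (0.30) and 0.29 (0.28), in the same order. Over all genes tested the same values were 0.49 (0.52), 0.01 (0.08) and 0.11 (0.16). Genes share libraries and are not replicates, so these are descriptions without a test. HMMR was among the 3 highest differences in each pool and MKI67 among the 2 lowest, although the middle of the group lay on opposite sides of 0 in pools 18 and 28.

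Transcript length is given because MKI67 has the longest transcript of the 38, 12678 bases in GENCODE v29. Across the 38 genes, the difference and log2 length had a Pearson r of -0.29, -0.19 and -0.45 in pools 17, 18 and 28, against -0.16, 0.09 and -0.25 over 9919 genes tested. Without MKI67 the values across 37 genes were -0.22, -0.02 and -0.34. In pool 18 the Pearson r thus rested on MKI67, while Spearman rho was -0.23 with MKI67 and -0.16 without it. For GC content, the Pearson r across the 38 genes was -0.02, -0.36 and -0.11 in pools 17, 18 and 28. Over the 9919 genes it was 0.07, -0.24 and 0.18. With the GC and length trends of all genes removed, MKI67 had -0.20, -0.74 and -0.99 in the 3 pools, and -0.64 over them (limma adjusted p = 0.204). ASPM, CENPF and CENPE, the next longest with 10887, 10307 and 8612 bases, had 0.46, 0.53 and 0.73 in pool 18 before that step. After it they had 0.36, 0.49 and 0.54. In pool 28 these genes had -0.81, -0.41 and -0.24 before it, and -0.48, -0.07 and 0.03 after it. With the trends removed the median of the group was -0.06, 0.75 and -0.41 in pools 17, 18 and 28. By promoter, the median pool 18 difference was 0.89 for the 22 genes with a CHR match and 0.95 for the 9 without one.

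Other genes of mitosis had median differences on the same side as the 38 in pools 18 and 28. In lists of regulators, kinetochore, spindle and cytokinesis, cohesin and condensin, and anaphase-promoting complex genes, 126 of 128 listed genes were tested. Their medians were -0.03, 0.55 and -0.30 in pools 17, 18 and 28, with 64, 104 and 28 of the 126 above the median of all genes. In pool 17 they thus divided about evenly. None passed limma's adjusted threshold, and 3 higher (5.99% of all genes tested) and 4 lower (7.14%) of the 126 had an unadjusted p under 0.05. The kinetochore list had 0.13, 0.75 and -0.17 (34 genes), with CENPT at 0.48 and INCENP, the scaffold of the passenger complex, at 0.72 over the pools (limma adjusted p = 0.338 and 0.393). By pool, CENPT had 0.39, 0.31 and 0.75, and INCENP 0.32, 1.655 and 0.19. The spindle list had 0.04, 0.80 and -0.36 (31 genes). In it STMN1, which encodes the microtubule destabilizer stathmin, read 89.7, 91.0 and 59.4 FPKM in controls, against 139, 271 and 91.2 in resistant libraries (0.93, adjusted p = 0.383), and ARHGAP11A had 0.68 (0.467).

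Cohesin and condensin genes had -0.13, 0.59 and -0.40 (18 genes). RAD21, the cohesin subunit that separase cuts, read 102, 186 and 156 FPKM in controls, against 73.9, 119 and 67.7 in resistant libraries, lower in each pool (-0.76, limma adjusted p = 0.358), as was the cohesin regulator PDS5B (-0.47, 0.345). The anaphase-promoting complex genes had -0.18, 0.24 and -0.19 (16 genes), with the subunit genes CDC16 at -0.69 and ANAPC11 at -0.51 over the pools (limma adjusted p = 0.252 and 0.472). By pool, CDC16 had -0.60, -0.65 and -0.82, and ANAPC11 -0.36, -1.22 and 0.06. These subunits are present through the whole cycle, unlike UBE2C and CDC20.

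Regulators of the cycle had medians of 0.11, 0.17 and -0.38 (27 genes). CDC25B, the phosphatase that starts CDK1 activation, read 8.93, 12.4 and 11.3 FPKM in controls, against 6.84, 7.36 and 5.25 in resistant libraries, below control in each pool (-0.66, limma adjusted p = 0.232), whereas its relative CDC25C was above in pools 17 and 18. CDKN1B, the CDK inhibitor p27, had 23.7, 21.8 and 15.9 against 35.6, 30.9 and 26.6 FPKM (0.59, adjusted p = 0.300). For comparison, 36 S phase genes had -0.15, 0.82 and -0.31, with TYMS at -1.34 and CDT1 at -0.64 over the pools (limma adjusted p = 0.158 and 0.347), and 6 genes of G1 cyclins and kinases had -0.07, -0.03 and -0.04, with CDK6 at -0.39 and CDK4 at 0.36 (adjusted p = 0.513 and 0.514). No test was made of the difference between lists.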

How the data were processed

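The authors deposited 1 FPKM value per gene symbol and library, per the file headers, with decimal commas. The submitters' processing notes name hg19, DESeq2, HTSeq 0.6.1, Cufflinks 2.2.1 and TopHat2 2.0.4, without the role of each tool; the annotation is not stated. Absolute depth was not estimated. Relative depth came from low values, whose ratios between libraries are ratios of small whole numbers for 72.7% to 77.9% of genes (tolerance 0.02 on the log2 scale).

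The 11307 genes that reached an FPKM of 1 in 3 or more libraries were transformed to log2(FPKM + 1) and tested by limma 3.58.1 (R 4.3.3; lmFit, eBayes with a trend, two-sided); p-values were adjusted across these genes by the Benjamini-Hochberg method. The script was tested on simulated data. The pseudocount of 1 shrinks differences of low genes. Since no label says that the pools were separate cultures from the start, the p-values reflect only how these 6 libraries spread, which may be technical.

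The submitters' design text describes the pools as pairs; that a shared number marks a pair was assumed, since no label states it. Correlations of their deviations around group means were 0.148, 0.0892 and -0.0243 for pools 17, 18 and 28. Between unlike numbers they ran from -0.207 (control 17 with resistant 18) to 0.173 (control 17 with resistant 28). Control 28 with resistant 18 had 0.124. The correlations therefore do not show that a shared number marks a pair. The replicate block was an alternative. A gene departed from the group in a pool where its difference, relative to the median of all genes, had the opposite sign or lay over 3 scaled median absolute deviations away. All 38 genes could be named, and of other lists the 2 of smallest unadjusted p where none passed. The members and lists were chosen with earlier results of these data known. Transcript length and GC content came from the longest protein-coding transcript in GENCODE v29 (GRCh38), matched by symbol for 87.7% of genes tested.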

Additional observations from a re-analysis of the deposited data

Results flagged for a closer look

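The median log2 difference of the 38 genes was 0.89 in pool 18 and -0.43 in pool 28, 1.32 apart, because resistant 18 was above and resistant 28 below its own control. With 1 library per group in each pool, this difference between pools was not tested. Relative depth was 1.02 and 1.10 in the libraries of pool 18 and 1.23 and 1.30 in those of pool 28, and the part of depth, or of the low weight of resistant 18 (0.162), in the difference was not tested.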

How the results depend on the processing

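With 3 libraries a group, precision is limited, and for the median of the group resistant 18 and resistant 28 lay on opposite sides of the controls. The count of all genes passing limma's threshold was 4, and became 2 with GC and length trends removed, 0 with those trends removed and the replicate block, and 301 with library weights. Leaving out a library or pool gave 3 to 18. Of the 38 genes 0 passed in any fit except with library weights, where 1 did (MKI67), and 0 passed when any library or pool was left out. With the replicate block alone 3 genes passed and 0 of the 38, and the block changed no call among the 38 genes.

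The median difference of the 38 genes over the pools, 0.12, was -0.18 with library weights and ran from -0.29 to 0.44 with a library or pool left out. Compared with the reported fit, 19 of the 38 genes changed sign without resistant 18 or without pool 18, and 11 without resistant 28 or pool 28. PRC1 was -0.045 without resistant 18 and -0.017 without pool 18, and up to 0.46 with another library left out. MKI67, PTTG1 and FOXM1 kept a negative sign, and HMMR, NEK2 and AURKB a positive one, in every fit run. In pool 18 the median of the group, 0.89, was 0.75 with GC and length trends removed, 0.95 against the mean of the 3 controls, 0.79 with median centring, 0.77 with a pseudocount of 5 and 0.78 with quantile normalization. In pool 28 the median of -0.43 was -0.51 against the mean of the 3 controls and -0.32 with a pseudocount of 5. The causes were not tested.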

Other observations

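The inhibitor and the enzyme of chromosome separation differed in balance between libraries. The ratio of PTTG1 (securin) to ESPL1 (separase) in FPKM was 29.2, 27.3 and 21.8 in controls 17, 18 and 28, against 24.7, 9.76 and 26.6 in their resistant counterparts, so that resistant 18 alone lay far under the others. The ratio of MKI67 to TOP2A was 0.158, 0.179 and 0.182 in controls and 0.133, 0.0458 and 0.119 in resistant libraries, lower in all 3 resistant libraries than in any control and lowest in resistant 18. With GC and length trends removed, MKI67 and TOP2A differed by -0.20 and -0.23 in pool 17. They had -0.74 and 0.73 in pool 18, and -0.99 and -0.81 in pool 28. MKI67 was then not the lower of the pair in pool 17. The ratio of TPX2 to AURKA was 1.64 in resistant 17 and between 0.769 and 1.02 in the other 5 libraries. That of CCNB1 to CDK1 was 1.15 in resistant 18 and between 0.737 and 0.882 elsewhere. These ratios were chosen after values were seen.

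CDKN1A, which encodes the CDK inhibitor p21 and was named here after its values were seen, differed in the direction opposite to the median of the 38 genes in pools 18 and 28. It read 369, 321 and 403 FPKM in controls 17, 18 and 28, against 390, 192 and 433 in resistant libraries, with -0.73 in pool 18, 0.10 in pool 28 and -0.18 over the pools (SE 0.33, limma adjusted p = 0.851). Without resistant 18 its difference was 0.18 (limma adjusted p = 0.534). MYBL2, the B-MYB partner of the MuvB complex, was also named after its values were seen. It read 62.4, 66.3 and 60.4 FPKM in controls, against 96.9, 94.1 and 73.0 in resistant libraries, so that all 3 resistant values lay above all controls (0.47, SE 0.18, limma adjusted p = 0.336), which 0 of the 38 genes did and 10.1% of all genes tested did.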
